A study of Mus musculus with 18 samples.

Results

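Unilateral orchidectomy (OD) was used to compare the IS-caput, which is the initial segment and the caput of the epididymis, between the operated and the untouched side. The members are 6 of the 18 libraries of the series, namely the 3 whose titles give the ipsilateral side and the 3 whose titles give the contralateral side. All 6 came from 12-week-old wild-type B6D1F1 males that had lost 1 testis about a month earlier. By the methods of the study both sides were taken from the same 3 mice, so the contralateral tissue comes from operated animals and not from untouched ones. The ipsilateral IS-caput had lost the luminal fluid of its own testis while the other testis stayed in the animal. The other libraries used here for comparison are 3 of sham-operated and 3 of bilateral OD IS-caput, from 12-week-old wild-type B6D1F1 males, and 3 of untreated wild-type (WT) and 3 of Nell2-/- IS-caput from 14-week-old mice. Nell2-/- mice lack the ligand in every tissue. Hormone levels were not measured in these data, and IS-caput is whole tissue in which fewer cells of a type and less RNA per cell cannot be told apart.

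The testis acts on the epididymis through the blood and through the lumen. Androgens reach the epididymal epithelium with the circulation. In the lumicrine route, proteins secreted by germ cells travel down the lumen. NELL2 is such a protein, and it binds the receptor tyrosine kinase ROS1 on the initial segment epithelium, after which ERK is activated and the epithelium differentiates. The differentiated epithelium secretes the protease OVCH2, which is needed for ADAM3 processing on the sperm surface. The proximal epididymis is also known for very high expression of a few secreted protein families, among them beta-defensins, lipocalins, cystatins and the glutathione peroxidase GPX5.

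Expression is given as FPKM, a fragment count scaled by transcript length and by the fragments mapped in the library, as deposited, for each library and as mean ± SD of 3 libraries. Fold changes are log2 values of FPKM + 0.1, ipsilateral over contralateral, ± the standard error of a limma fit of all 18 libraries. The word called is used of a gene with an adjusted p below 0.05, and called 10-fold of such a gene whose mean FPKM also changed to less than 0.1 times or more than 10 times the contralateral mean. The p-values and standard errors use a spread pooled over all 18 libraries. For a gene that varied within another group they can be larger than the unilateral OD libraries alone would give. The summed FPKM of a library was 722933 ± 2562 contralaterally and 678102 ± 17216 ipsilaterally. The value of 1 read relative to that in a sham library, read from the smallest FPKM steps, lay between 0.865 and 0.936 in the contralateral and between 0.732 and 0.859 in the ipsilateral libraries. The replicates therefore had broadly like depths, although the depth itself is unknown. The mitochondrial leucyl-tRNA synthetase gene Lars2, chosen after its values were seen, ranged from 44.5 to 84.9 FPKM in the sham and bilateral OD libraries and from 404 to 758 FPKM in the other 12 libraries, so the unilateral OD libraries are on the side of the WT and Nell2-/- libraries in this gene. Its part in the comparisons with bilateral OD was not tested.

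Of 17302 genes tested, 3212 (18.6%) were called lower and 2775 (16.04%) were called higher on the ipsilateral side. The falls reached further than the rises. There were 309 genes (1.79%) called 10-fold lower and 30 (0.173%) called 10-fold higher, and 940 falls but 465 rises went beyond 1 on the log2 scale. Of the 309 genes, 80 had at least 10 FPKM on the contralateral side, 146 had under 1 FPKM there, and 105 were listed at 0 in all 3 ipsilateral libraries. Together they held 12.7 ± 0.223% of the summed FPKM of a contralateral library and 0.217 ± 0.0208% of that of an ipsilateral library. Of the 30 genes called 10-fold higher, 24 stayed under 1 FPKM. Most called changes of abundant genes were modest. Among genes that averaged 10 FPKM or more in the 6 libraries, 257 of 1809 called falls and 99 of 1348 called rises went beyond 1 on the log2 scale.

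**Figure D1:**
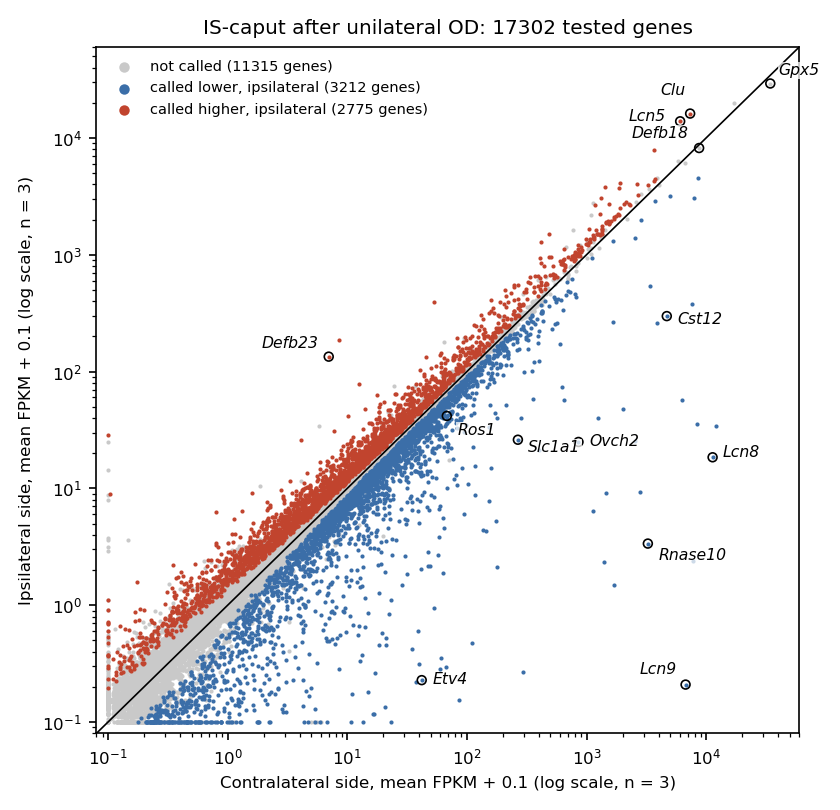
Mean FPKM + 0.1 of each tested gene on the contralateral side (horizontal, log scale) and on the ipsilateral side (vertical, log scale), n = 3 libraries a side, with the line of equal values. Blue points are the 3212 genes called lower and red points the 2775 called higher. Lcn9, Lcn8, Rnase10 and Etv4 lie far below the line, Gpx5 and Defb18 lie on or near it at the top of the range, and Clu, Lcn5 and Defb23 lie above it.

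The receptor of the relay and the genes downstream of it fell to very different degrees. Ros1 (NCBI gene 19886, chromosome 10 from 52044863 to 52195398 on GRCm38), which encodes the NELL2 receptor, had 67.8, 73.1 and 62.6 FPKM on the contralateral and 45.4, 37.5 and 41.9 FPKM on the ipsilateral side. The ranges stay apart, yet 61.3% of the level remained (log2 -0.71 ± 0.08, adjusted p = 2.4e-06). Ovch2 (gene 244199, chromosome 7 from 107781544 to 107801179), the serine protease that the epithelium makes in response, had 841, 854 and 876 FPKM contralaterally and 22.3, 23.9 and 28.4 FPKM ipsilaterally. It fell in all 3 libraries to 2.903% of the contralateral mean (log2 -5.11 ± 0.11, adjusted p = 1.2e-15).

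Further falls in the same list were deeper still. The metalloprotease gene Adam28 (gene 13522, chromosome 14 from 68604998 to 68655889) had 1089, 1151 and 1189.9 FPKM contralaterally and 6.86, 6.399 and 5.51 FPKM ipsilaterally (log2 -7.496 ± 0.09, adjusted p = 2.7e-19). The secreted RNase A family gene Rnase10 (gene 75019, chromosome 14 from 51007751 to 51010761) had 3204, 3204 and 3362 FPKM contralaterally and 3.49, 4.04 and 2.28 FPKM ipsilaterally, which is 0.1004% of the contralateral mean. Both genes were high in every contralateral library and at a few FPKM in every ipsilateral library. Of the 7 tested genes in the relay list 4 were called lower and 0 higher, against 18.6% and 16.04% of all tested genes. Ptpn6, the phosphatase that restrains ROS1, was not called at 13.2 ± 0.334 and 11.8 ± 0.460 FPKM (adjusted p = 0.119). The ligand gene Nell2 itself, which germ cells express, was near the floor on both sides, at 0.262, 0.369 and 0.135 FPKM contralaterally and 0.258, 0.287 and 0.355 FPKM ipsilaterally, and the ranges overlap. Gm1673, the mouse locus of the NELL2 partner NICOL, had overlapping ranges too and was not called (adjusted p = 0.287).

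Genes that report ERK activity fell as a group, with 17 of 22 tested members of the list of PEA3 ETS factors and ERK feedback genes called lower and 1 higher, at a median log2 of -1.66 against 0.02 over all tested genes. Of all tested genes 18.6% were called lower and 16.04% higher. The summed FPKM of the list was 625 ± 1.82 contralaterally and 106 ± 3.68 ipsilaterally. Etv4 (gene 18612, chromosome 11 from 101769747 to 101785310), a PEA3 ETS transcription factor, had 42.5, 39.7 and 43.2 FPKM contralaterally, and the ipsilateral libraries held 0.108, 0 and 0.278 FPKM (log2 -7.72 ± 0.33, adjusted p = 3.3e-11). Its paralog Etv5 (gene 104156, chromosome 16 from 22381313 to 22439570) had 172, 189.6 and 175 FPKM contralaterally and 1.99, 2.24 and 1.801 FPKM ipsilaterally (log2 -6.41 ± 0.09, adjusted p = 1.2e-18). Etv1, the third member of the subfamily, kept more of its level, with 16.6, 18.4 and 17.7 FPKM contralaterally and 4.73, 4.31 and 3.897 FPKM ipsilaterally (log2 -2.01 ± 0.17). None of the 3 factors had overlapping ranges.

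The negative regulators of ERK fell to different degrees. Among the dual-specificity phosphatases that inactivate ERK, Dusp4 fell by 4.48, Dusp6 by 3.82 and Dusp5 by 3.14 on the log2 scale. Dusp6 (gene 67603, chromosome 10 from 99263231 to 99267489) had 65.3, 61.6 and 65.1 FPKM contralaterally and 4.64, 4.44 and 4.29 FPKM ipsilaterally. The Sprouty and Spred genes, which act upstream on RAS and RAF, had changes from falls of 0.54 for Spry2 to 1.803 for Spred2 on the log2 scale, with Spry1, Spry4, Spred1 and Spred3 between them. Ccnd1, which encodes cyclin D1, stood at 67.7 ± 2.72 FPKM contralaterally and 24.2 ± 1.63 ipsilaterally, Phlda1 at 76.0 ± 2.63 and 17.7 ± 1.43, and the immediate early gene Egr1 at 14.2 ± 2.54 and 4.76 ± 1.57, and all were called lower. Myc was the only member called higher, from 1.17 ± 0.236 to 2.02 ± 0.137 FPKM (log2 0.76 ± 0.23, adjusted p = 0.0155). The 4 members that were tested and not called are Epha2, Il17rd, Lif and Fos.

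FGF receptors feed the same ERK pathway. In their list of 8 genes 0 were called lower and 4 higher, against 18.6% and 16.04% of all tested genes. Fgfr2 had 11.04, 11.6 and 10.2 FPKM contralaterally and 18.7, 18.2 and 17.3 FPKM ipsilaterally, with ranges apart (log2 0.72 ± 0.10, adjusted p = 1.9e-05). The calls of Fgfr4, Frs2 and Sos1 are weak. Without single libraries Fgfr4 lost its call in 5 of 6 fits, Frs2 in 4 and Sos1 in 6, with adjusted p of up to 0.121, 0.127 and 0.116 respectively.

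**Figure D2:**
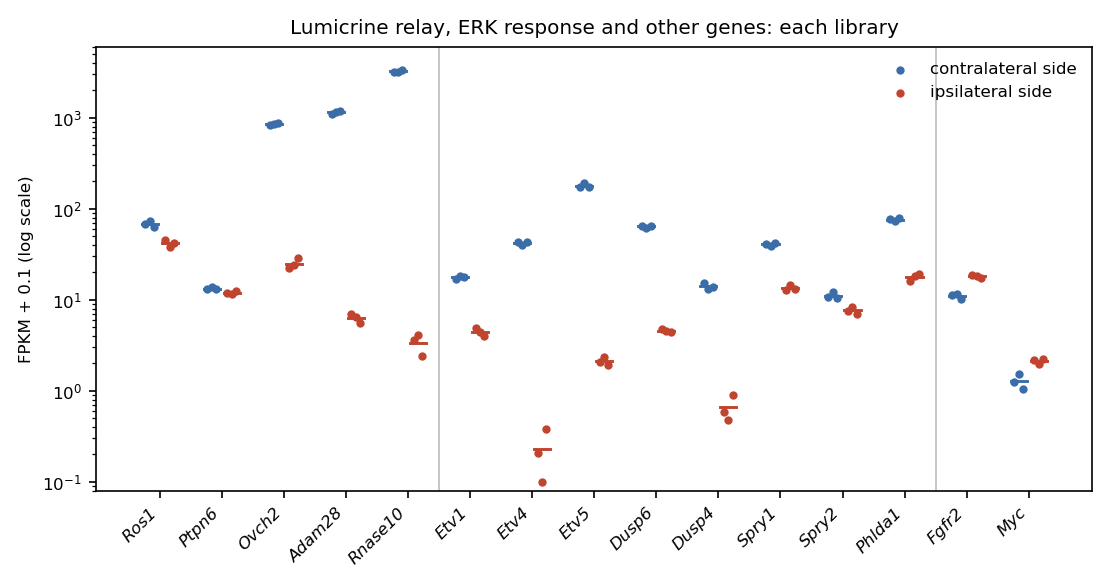
FPKM + 0.1 (log scale) in each library for genes of the lumicrine relay (left), PEA3 ETS factors and ERK feedback genes (middle) and Fgfr2 and Myc (right), contralateral in blue and ipsilateral in red, with the group mean as a bar (n = 3). Ros1 keeps 61.3% of its level while Rnase10 and Etv4 fall to a few FPKM or less, and Fgfr2 and Myc are higher in all 3 ipsilateral libraries.

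The lipocalins, secreted carriers of small lipophilic molecules, split into genes that were lost, genes that stayed and genes that rose. Most of them lie in a cluster on chromosome 2, so the 250 bases before the transcript start are printed for 4 members with different outcomes, from RefSeq on GRCm38.p6, with capitals marking AGAACA, the hexamer of androgen response elements, on either strand.
Lcn8, strand +, chr2:25652868-25653117: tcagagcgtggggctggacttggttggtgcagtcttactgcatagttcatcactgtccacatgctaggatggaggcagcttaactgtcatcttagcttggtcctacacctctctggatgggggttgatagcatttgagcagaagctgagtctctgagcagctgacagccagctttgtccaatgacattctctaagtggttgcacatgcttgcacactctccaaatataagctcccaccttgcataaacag
Lcn9, strand +, chr2:25822903-25823152: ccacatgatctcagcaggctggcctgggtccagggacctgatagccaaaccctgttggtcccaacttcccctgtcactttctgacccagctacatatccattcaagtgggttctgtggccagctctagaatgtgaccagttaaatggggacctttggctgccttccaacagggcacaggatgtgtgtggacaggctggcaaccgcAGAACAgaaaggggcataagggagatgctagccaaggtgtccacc
Lcn5, strand +, chr2:25657702-25657951: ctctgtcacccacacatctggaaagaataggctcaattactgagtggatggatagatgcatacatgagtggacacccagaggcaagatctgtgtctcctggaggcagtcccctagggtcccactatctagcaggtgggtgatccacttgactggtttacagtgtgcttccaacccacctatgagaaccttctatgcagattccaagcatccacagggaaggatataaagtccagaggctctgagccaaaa
Lcn6, strand +, chr2:25676536-25676785: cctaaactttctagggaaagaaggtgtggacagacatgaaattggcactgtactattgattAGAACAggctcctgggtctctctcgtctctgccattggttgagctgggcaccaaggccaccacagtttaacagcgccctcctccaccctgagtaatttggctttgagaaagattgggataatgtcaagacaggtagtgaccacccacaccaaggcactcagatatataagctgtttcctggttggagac
The letters AGAACA or TGTTCT are present once in the windows of Lcn9 and Lcn6, and also in those of Lcn10 and Lcn12, and not in those of Lcn8 and Lcn5. They occur in 16.1% of 32851 RefSeq promoter windows of this length. The letters AGGAAG or CTTCCT, the PEA3 core, are in 29.5% of the windows and in none of these 6. The hexamer thus stands before a gene that was lost and a gene that stayed, and a match of this kind is a description of the letters only.

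Lcn8 (gene 78076) and Lcn9 (gene 77704) were among the most abundant transcripts that were lost. Lcn8 had 11922, 10861 and 11193 FPKM contralaterally and 15.5, 15.6 and 23.99 FPKM ipsilaterally (log2 -9.29 ± 0.15, adjusted p = 3.3e-16). For Lcn9 the contralateral libraries held 6713, 6459.7 and 7025 FPKM and the ipsilateral libraries 0, 0.121 and 0.207 FPKM, so the transcript was close to or at 0 in all 3. Lcn10 (gene 332578) kept a larger share. It had 1636, 1644 and 1677 FPKM contralaterally and 261, 288 and 252 FPKM ipsilaterally, or 16.2% of the contralateral mean. Lcn2, the lipocalin that binds bacterial siderophores, fell from 7920.3 ± 323 to 3059.8 ± 402 FPKM (log2 -1.38 ± 0.08).

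Neighbouring lipocalin genes were not called lower. Lcn6 (gene 620709) had 813, 848 and 799.9 FPKM contralaterally and 742, 829 and 592 FPKM ipsilaterally, the ranges overlap, and the interval of its log2 change runs from -0.67 to 0.27. Lcn12 (gene 77701) was higher in all 3 ipsilateral libraries, with 443, 446 and 431 FPKM contralaterally and 823, 836 and 730.4 FPKM ipsilaterally (log2 0.85 ± 0.10, adjusted p = 3.1e-06). Lcn5 (gene 13863), a retinoid carrier, had 6716, 5801 and 5677 FPKM contralaterally and 13649, 12616 and 15349 FPKM ipsilaterally, 2.29 times the contralateral mean. Its ranges are far apart, but its call (log2 1.19 ± 0.41, adjusted p = 0.0398) was lost when any 1 of the 6 libraries was left out, with adjusted p from 0.0653 to 0.103. In the list 5 of 12 tested members were called lower and 2 higher, against 18.6% and 16.04% of all tested genes. The summed FPKM was 36099 ± 849 contralaterally and 20188 ± 977 ipsilaterally. Lipocalin transcripts share sequence, and the split of reads between near copies is uncertain.

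The beta-defensins, antimicrobial peptides that also coat sperm, had 6 of 39 tested members called lower and 13 higher. The share called lower is close to the 18.6% of all tested genes, of which 16.04% were called higher. The median log2 of the list was 0.54. The summed FPKM went the other way, from 70362 ± 812 to 47889.5 ± 4410, since the genes that fell were among the most abundant. Defb25 (gene 654459, chromosome 2 from 152622356 to 152623053) had 12074, 11621 and 12618 FPKM contralaterally and 46.5, 31.5 and 24.8 FPKM ipsilaterally (log2 -8.51 ± 0.23, adjusted p = 7.8e-13). Defb48 had 7897, 7413 and 7831 FPKM contralaterally and 1.58, 2.54 and 2.71 FPKM ipsilaterally, and Defb47 went from 6262 ± 289 to 56.96 ± 20.5 FPKM. These 3 genes were called 10-fold lower, with no overlap between the sides. Defb20 kept 53.7% of its level, from 8539 ± 457 to 4582 ± 780.4 FPKM, and Defb42 kept 76.3%.

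Other defensin genes rose or stayed. Defb23, near Defb25 on chromosome 2, rose most, from 12.7, 3.99 and 3.99 FPKM contralaterally to 87.1, 91.7 and 223 FPKM ipsilaterally (log2 4.34 ± 0.73, adjusted p = 3.9e-04), with 1 ipsilateral library well above the other 2. The same ipsilateral library was the highest for Defb28, which had 15.6, 11.2 and 10.3 FPKM contralaterally and 45.2, 53.4 and 136 FPKM ipsilaterally, and for Spag11a, which rose from 420.2 ± 82.3 to 1292 ± 345 FPKM. Defb15 rose from 1316 ± 28.6 to 3031 ± 592 FPKM and Defb2 from 159 ± 9.62 to 408 ± 12.8 FPKM. Defb18 (gene 654460, chromosome 1 from 18236402 to 18237476) is an abundant member that kept its level, with 8422, 9309.6 and 8474 FPKM contralaterally and 8775, 8923 and 6884 FPKM ipsilaterally (log2 -0.10 ± 0.10, interval -0.32 to 0.12). Spag11b, the most abundant defensin-like transcript, had overlapping ranges around 16992 ± 473 and 20076 ± 2844 FPKM and was not called (adjusted p = 0.0916). Defensin genes are close copies of each other, and the split of reads between them is uncertain.

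The cystatins, inhibitors of cysteine proteases, fell together, with 10 of 12 tested members called lower and 0 higher, against 18.6% and 16.04% of all tested genes. Their median log2 was -2.39, and their summed FPKM went from 23859.7 ± 882 to 1848 ± 208. A run of them lies on chromosome 2. Cst11 (148768618 to 148771497) had 7229, 7896 and 7818 FPKM contralaterally and 485, 423 and 228 FPKM ipsilaterally (log2 -4.41 ± 0.22). Cst12 (gene 69362, 148789365 to 148793432) had 4540.5, 4679 and 4848 FPKM contralaterally and 355, 326 and 214 FPKM ipsilaterally (log2 -4.01 ± 0.45). Both kept about the same small share, 4.95% and 6.36%, with 1 ipsilateral library lower than the other 2. Cst8 (148798839 to 148805596), in which the contralateral libraries held 1683, 1641 and 1734 FPKM, was down to 0.918, 1.39 and 1.84 FPKM. The cystatin-like 9230104L09Rik (gene 77705, 148844620 to 148850962) had 8087, 8466 and 8831 FPKM contralaterally and 27.9, 31.3 and 47.6 FPKM ipsilaterally (log2 -7.93 ± 0.13, adjusted p = 1.3e-16). The broadly expressed members Cst3 and Cstb fell by 0.24 and 0.42 on the log2 scale, and Cst7 and Cstl1 were not called. Cst9, Cst13 and Csta1 were listed at 0 in all ipsilateral libraries, from contralateral means of 0.776 ± 0.475, 0.997 ± 0.217 and 0.258 ± 0.117 FPKM.

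**Figure D3:**
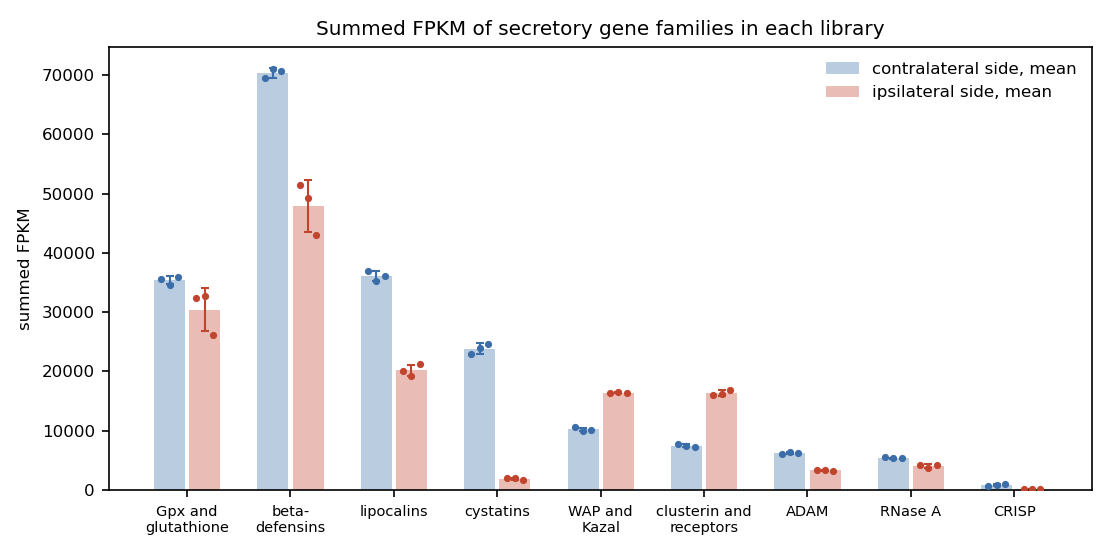
Summed FPKM of 9 gene families in each library (points), with the mean as a bar and the SD as an error bar, contralateral in blue and ipsilateral in red (n = 3 each). The cystatin sum falls from 23859.7 to 1848 and the lipocalin sum from 36099 to 20188, while the sums of WAP and Kazal inhibitors and of clusterin with its receptors are higher in all 3 ipsilateral libraries.

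Among the families with a role in sperm maturation or protection of the duct, the CRISP, RNase A and ADAM sums were lower on the ipsilateral side. Of 6 tested CRISP genes 3 were called lower and 2 higher, against 18.6% and 16.04% of all tested genes. Without Crisp1 the difference of the CRISP sum shrank from -630.3 to -75.4 FPKM. Of 11 tested RNase A genes 2 were called lower and 1 higher. The loss of Rnase10 given above is larger than the whole difference of the RNase A sum, -1329.8 FPKM. For the CRISP, RNase A and ADAM sums the exact two-sided permutation test gave p = 0.1 each, the smallest that 3 against 3 allows. Crisp1, which coats sperm in transit, had 515, 627 and 745 FPKM contralaterally and 55.7, 72.03 and 94.4 FPKM ipsilaterally (log2 -3.102 ± 0.42, adjusted p = 7.6e-05). Crisp4 fell less, from 216 ± 9.02 to 137 ± 3.58 FPKM. Crisp2, known for its expression in germ cells, stood at 2.35, 2.12 and 2.68 FPKM contralaterally and at 0.0613, 0 and 0.158 FPKM ipsilaterally. Crisp3 was listed at 0 in every contralateral library and called higher at 0.647, 0.456 and 0.389 FPKM, and Crispld2 was called higher from 12.3 ± 0.9805 to 18.02 ± 0.475 FPKM (adjusted p = 0.0491). The call of Crispld2 was lost when any 1 of the 6 libraries was left out, with adjusted p from 0.06516 to 0.1325. Apart from Rnase10, the abundant RNase A gene Rnase9 went the other way without being called, at 1124 ± 122 and 2755 ± 273 FPKM (adjusted p = 0.07403). Of 22 ADAM genes tested 9 were called lower and 2 higher, against 18.6% and 16.04% of all tested genes. Adam7, an epididymal member passed on to sperm, kept 64.5% with 4867, 5018 and 4942 FPKM contralaterally and 3264, 3183 and 3125 FPKM ipsilaterally.

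Among the protease inhibitors of the WAP and Kazal families 13 of 30 tested members were called higher and 6 lower, against 16.04% and 18.6% of all tested genes, with a median log2 of 0.34 and a summed FPKM of 10260.5 ± 267 contralaterally and 16439 ± 62.5 ipsilaterally. Spink8 had 2054, 1865 and 1846 FPKM contralaterally and 4145, 4069 and 4243 FPKM ipsilaterally (log2 1.11 ± 0.18, adjusted p = 2.3e-04). Spink11 rose from 1169.8 ± 93.2 to 2678 ± 135 FPKM, Spink12 from 411 ± 7.897 to 932 ± 75.7, and Spink5 from 325 ± 20.8 to 588 ± 21.1. Of the WAP genes Wfdc8 rose from 118 ± 3.46 to 247 ± 11.9 FPKM. In the other direction Spink13, an epididymal Kazal inhibitor, fell from 47.4 ± 2.81 to 11.3 ± 2.14 FPKM and Wfdc2 from 14.8 ± 3.65 to 4.47 ± 1.12 FPKM. Among serpins 5 of 27 tested members were called higher, a share close to the 16.04% of all tested genes, and 1 lower.

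The most abundant transcript of the tissue, Gpx5, which encodes a secreted peroxidase that protects sperm from oxidation, was not called. It had 34542, 33669 and 34922 FPKM contralaterally and 31157, 31511 and 25000.1 FPKM ipsilaterally. Every ipsilateral value was below every contralateral one, but the difference missed the threshold (log2 -0.24 ± 0.09, adjusted p = 0.0527), and the third ipsilateral library was the lowest. Without the ipsilateral replicate 1 or 2 the fall of Gpx5 was called, at an adjusted p down to 0.0362. In the glutathione list 6 of 21 tested members were called lower and 6 higher, against 18.6% and 16.04% of all tested genes. Gpx3, the plasma form, rose from 129.9 ± 6.91 to 303 ± 14.7 FPKM, and Ggt1, which cleaves extracellular glutathione, from 82.4 ± 3.698 to 195 ± 12.3 FPKM. Ggt7 fell from 31.2 ± 1.65 to 1.76 ± 0.153 FPKM (log2 -4.07 ± 0.14).

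Clusterin, an abundant secreted chaperone, rose on the ipsilateral side. Clu (gene 12759, chromosome 14 from 65968483 to 65981548) had 7679.9, 7258 and 7111 FPKM contralaterally and 15830.5, 15988 and 16662 FPKM ipsilaterally, with all ipsilateral libraries far above all contralateral ones (log2 1.14 ± 0.17, adjusted p = 6.7e-05). Of the receptors that take up lipoproteins and clusterin, Vldlr fell from 10.3 ± 0.318 to 1.37 ± 0.0332 FPKM, and Lrp2, low in this tissue, rose from 1.18 ± 0.263 to 2.93 ± 0.677 FPKM. Dab2, the adaptor of these receptors, rose from 107 ± 4.65 to 194 ± 6.39 FPKM.

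Outside these families the largest falls were in genes of varied function. Ntsr1, the neurotensin receptor, had 21.6, 25.4 and 22.95 FPKM contralaterally and was listed at 0 in all 3 ipsilateral libraries. Krt23, a type I keratin, went from 86.6 ± 3.39 to 0.0546 ± 0.0575 FPKM, and Dapl1 from 67.02 ± 2.67 to 0.198 ± 0.209 FPKM. Gcnt4, a glycosyltransferase that branches O-glycans, went from 59.2 ± 1.37 to 0.185 ± 0.0435 FPKM, and the secreted phospholipase gene Pla2g5 from 60.9 ± 0.746 to 0.254 ± 0.125 FPKM. The epididymal membrane protein genes Teddm2 and Teddm1a went from 1402 ± 61.7 to 2.25 ± 0.268 and from 2532 ± 46.6 to 25.4 ± 2.86 FPKM. The sides do not overlap in these genes because the rule that picked them required it. Of all tested genes 46.7% had sides that do not overlap.

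The small nucleolar RNA Snord22 and the pseudogene Atp6v0c-ps2 had the largest called rises among genes averaging 10 FPKM or more with sides apart. Snord22 was listed at 0 in every contralateral library and stood at 39.2, 13.1 and 33.1 FPKM ipsilaterally, and Atp6v0c-ps2 went from 0.171, 0.0104 and 24.9 to 141, 233 and 190.2 FPKM. The call of Atp6v0c-ps2 was lost in the fit of the 6 libraries alone. Below these and Defb23 in fold came BC048679, a gene with no role given here, which had 68.3, 49.1 and 41.7 FPKM contralaterally and 348, 330.4 and 503 FPKM ipsilaterally (log2 2.895 ± 0.60, adjusted p = 0.00218). Ly6f rose from 4.03 ± 0.408 to 25.9 ± 6.59 FPKM, and the zinc and manganese transporter gene Slc39a8 from 7.71 ± 1.99 to 31.2 ± 11.1 FPKM. Gc, which encodes the vitamin D binding protein, rose from 17.6 ± 1.95 to 63.2 ± 6.85 FPKM and the carboxylesterase gene Ces1d from 14.1 ± 1.06 to 47.8 ± 4.16 FPKM. The rule that picked these rises required that all 3 ipsilateral libraries lie above all 3 contralateral libraries. Counted in FPKM rather than in fold, Lypd8 gained from 3494, 3787 and 3749 to 8167, 8467 and 6787 FPKM (log2 1.08 ± 0.09, adjusted p = 3.6e-08), and Glul, glutamine synthetase, from 1856 ± 86.4 to 3745 ± 226 FPKM. Cuzd1, which encodes a secreted protein with CUB and zona pellucida domains, rose from 1531 ± 23.4 to 2708 ± 199 FPKM, and D730048I06Rik from 1441 ± 85.8 to 3774 ± 736 FPKM.

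Genes known to be induced by androgens had 9 of 30 called lower and 6 higher, against 18.6% and 16.04% of all tested genes. Their median log2 was -0.07. Fkbp5, the best known androgen-induced gene of the list, had 181, 202 and 183 FPKM contralaterally and 171, 183 and 171 FPKM ipsilaterally and was not called (log2 -0.11 ± 0.05, interval -0.22 to 0.00). The deepest fall of the list was in Abcc4, an organic anion exporter, from 19.1 ± 1.26 to 2.14 ± 0.384 FPKM. Of the enzymes that convert testosterone to dihydrotestosterone, Srd5a1 fell from 11.03, 11.5 and 12.2 to 2.74, 3.54 and 3.47 FPKM (log2 -1.81 ± 0.11). Srd5a2, the more abundant of the pair, was called higher, from 179 ± 1.496 to 225 ± 20.1 FPKM, a call that was lost without the ipsilateral replicate 1 (adjusted p = 0.0698). Esr1 rose from 12.3 ± 0.659 to 17.97 ± 1.57 FPKM.

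Cholesterol synthesis genes fell moderately, with 15 of 19 called lower and 1 higher, against 18.6% and 16.04% of all tested genes. Their median log2 was -0.74. Dhcr7, the last step, had 9.92, 8.85 and 8.397 FPKM contralaterally and 1.06, 1.09 and 1.16 FPKM ipsilaterally (log2 -2.93 ± 0.14, adjusted p = 1.7e-11). Lss fell by 1.56, Idi1 by 1.38 and Cyp51 by 1.05 on the log2 scale. Fdps was not called, and its interval runs from -0.23 to 0.07.

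Transport genes of the duct changed in both directions. Cftr, the chloride and bicarbonate channel, fell from 13.4 ± 1.25 to 3.304 ± 0.381 FPKM, the sodium bicarbonate cotransporter gene Slc4a4 from 18.5 ± 0.695 to 8.05 ± 0.604 FPKM, and the water channel gene Aqp9 from 50.4 ± 2.66 to 24.8 ± 3.69 FPKM. Slc26a3, a chloride and bicarbonate exchanger, rose from 5.83 ± 0.443 to 14.6 ± 0.655 FPKM. In the list of bicarbonate, pH and chloride transport 6 of 15 were called lower and 3 higher, against 18.6% and 16.04% of all tested genes. The glutamate transporter gene Slc1a1 (gene 20510, chromosome 19 from 28835135 to 28913960) showed the deepest fall of the amino acid transporters, with 261, 274 and 265 FPKM contralaterally and 25.5, 26.7 and 25.8 FPKM ipsilaterally (log2 -3.35 ± 0.09, adjusted p = 5.4e-15). Slc38a5, which carries glutamine, rose from 2667 ± 72.2 to 4025 ± 287 FPKM, and 5 of 20 amino acid transporters were called lower and 6 higher, against 18.6% and 16.04% of all tested genes.

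Cell cycle genes fell on the ipsilateral side, with 22 of 24 called lower and 0 higher at a median log2 of -1.301. Top2a had 3.62, 4.53 and 3.74 FPKM contralaterally and 0.764, 0.739 and 0.617 FPKM ipsilaterally, and Mki67 1.87, 2.16 and 1.75 and 0.365, 0.454 and 0.353 FPKM. Pcna, the replication clamp gene and the most abundant member, fell less, from 58.4 ± 0.07801 to 43.1 ± 2.71 FPKM. The replication helicase gene Mcm2 was 1 of the 2 that were not called, at 9.71 ± 0.432 and 9.22 ± 0.399 FPKM. Genes of ER folding had a median log2 of 0.00, with 10 of 26 called lower and 7 higher, mostly by small amounts. Of all tested genes 18.6% were called lower and 16.04% higher.

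**Figure D4:**
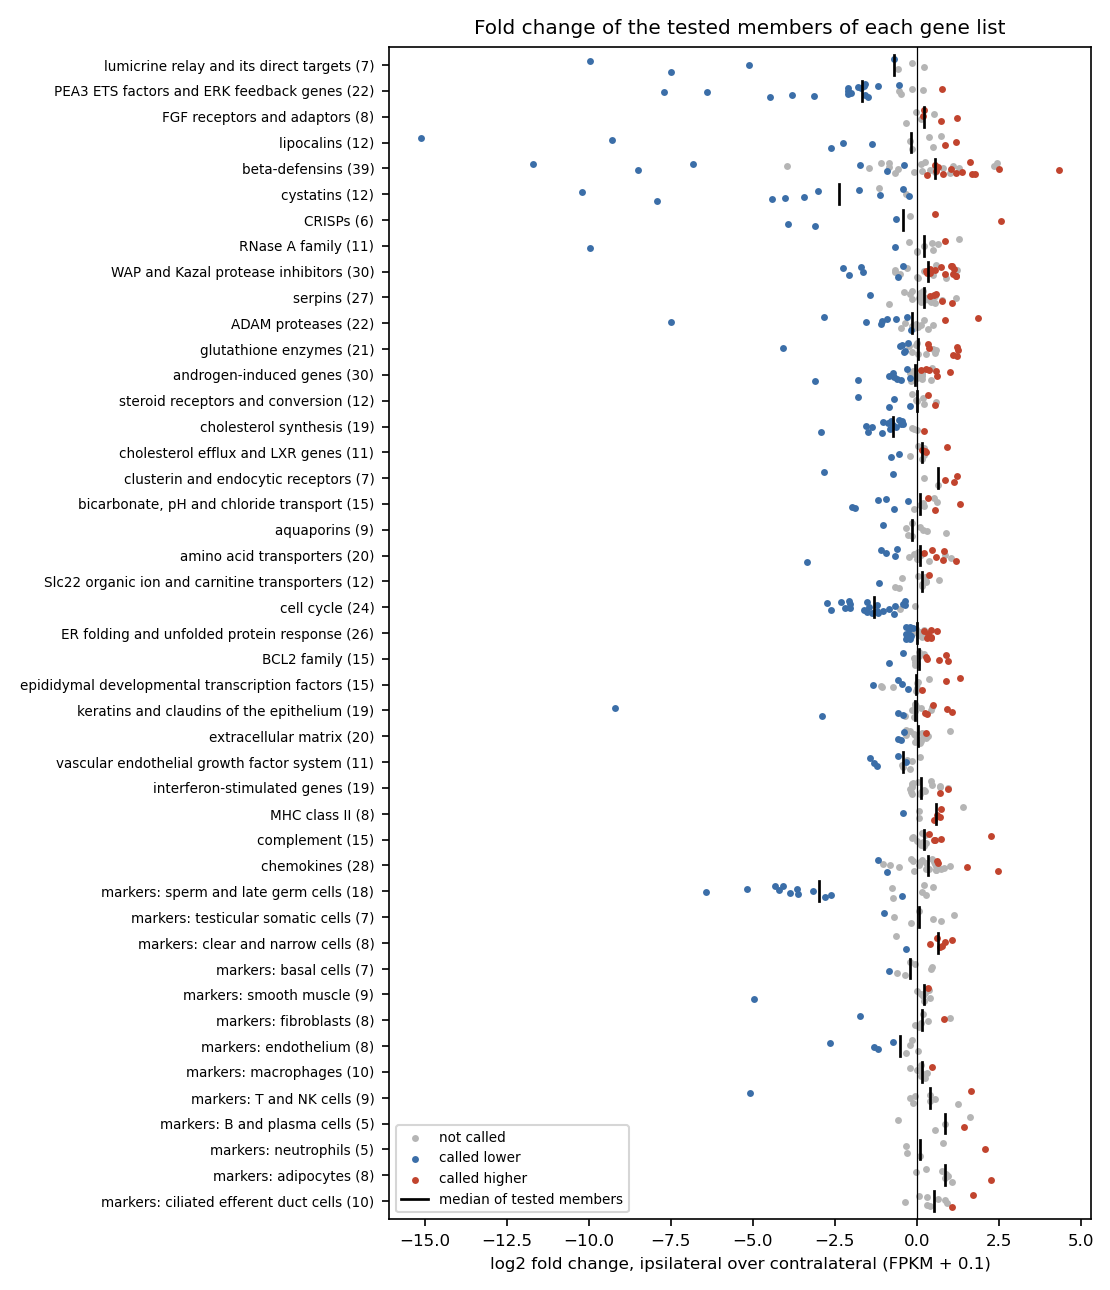
Log2 fold change, ipsilateral over contralateral, of each tested member (points) of the gene lists with at least 5 tested members, number tested in parentheses, with the list's median as a black line. Blue points are called lower, red points called higher and grey points not called. The cystatins, the ERK list, the cell cycle list and the sperm markers have medians of -2.39, -1.66, -1.301 and -2.99, and most other medians lie near 0.

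Keratins, claudins and other junction genes of the epithelium moved both ways, with 4 of 19 tested members called lower and 5 higher, against 18.6% and 16.04% of all tested genes, and a median log2 of -0.06. Epcam had 235, 245 and 235 FPKM contralaterally and 225, 237 and 219.7 FPKM ipsilaterally, and it was not called, nor were Krt8 and Krt18. Cldn10, a claudin that forms ion pores in tight junctions, had 119, 113 and 116 FPKM contralaterally and 15.4, 14.3 and 16.7 FPKM ipsilaterally (log2 -2.898 ± 0.30, adjusted p = 4.3e-06). Against that Cldn8 rose from 28.4 ± 1.88 to 59.5 ± 5.88 FPKM and Krt19 from 168 ± 7.81 to 315 ± 17.1 FPKM. The duct transcription factor genes Pax8 and Pax2 went apart, with Pax8 falling by 0.57 on the log2 scale and Pax2 rising by 0.90.

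Markers of other cell types were counted to see which cells the sides held. Clear and narrow cell markers were called higher in 6 of 8 and lower in 1, and their summed FPKM was 124 ± 4.17 contralaterally and 173 ± 12.97 ipsilaterally. Foxi1 (gene 14233, chromosome 11 from 34204341 to 34208089), the transcription factor of these acid-secreting cells, had 36.2, 38.6 and 37.5 FPKM contralaterally and 83.5, 80.02 and 70.7 FPKM ipsilaterally (log2 1.06 ± 0.09, adjusted p = 9.7e-08). Without Foxi1, the most abundant member of that list, the sums averaged 86.06 FPKM contralaterally and 94.985 FPKM ipsilaterally. Most of the difference of the clear and narrow cell sum was therefore that of Foxi1. Basal cell markers had 1 of 7 called lower and 0 higher, against 18.6% and 16.04% of all tested genes. Macrophage markers had 0 of 10 called lower and 1 higher, with sums of 181 ± 13.4 and 219 ± 8.21 FPKM. Adipocyte markers had 0 of 8 called lower and 1 higher, and markers of ciliated efferent duct cells 0 of 10 lower and 2 higher. The call of the adipocyte gene Cfd was lost without the contralateral replicate 3. That of the ciliated cell gene Tmem212 was lost in 5 of 6 fits without single libraries. The adipocyte sum was 7.93 ± 2.07 contralaterally and 14.9 ± 3.69 ipsilaterally, and that of ciliated efferent duct cells 21.3 ± 4.38 and 32.3 ± 0.876, in FPKM. The part of these differences in the gene changes above was not tested. In immune and matrix lists 4 of 8 MHC class II genes were called higher and 1 lower at a median log2 of 0.57, with 0 of 19 interferon-stimulated genes called lower and 2 higher, 0 of 15 complement genes lower and 5 higher, 2 of 28 chemokine genes lower and 4 higher, and 3 of 20 extracellular matrix genes lower and 1 higher, against 18.6% and 16.04% of all tested genes.

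Single genes of 2 lists fell far while the rest of the list did not. Actg2 (gene 11468, chromosome 6 from 83512909 to 83536251), named for smooth muscle actin, had 1245, 1219 and 1270.0 FPKM contralaterally and 45.8, 40.05 and 34.2 FPKM ipsilaterally (log2 -4.97 ± 0.13, adjusted p = 2.8e-14). The other smooth muscle genes Acta2, at 212 ± 23.6 and 249 ± 32.8 FPKM, and Myh11, at 55.3 ± 2.97 and 66.7 ± 11.1 FPKM, were not called. Klrb1c (gene 17059, chromosome 6 from 128778485 to 128788641), known as an NK cell receptor gene, had 142, 144 and 151 FPKM contralaterally and 4.55, 4.59 and 3.47 FPKM ipsilaterally (log2 -5.09 ± 0.09). Without Klrb1c the T and NK cell list summed to 2.48 FPKM contralaterally and 4.24 FPKM ipsilaterally on average. In that list Nkg7 was called higher (log2 1.65), a call lost without the contralateral replicate 2 (adjusted p = 0.0619). Gzmb was not called (log2 0.40), and no T cell gene of the CD3 complex reached 1 FPKM in any of the 6 libraries.

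Vascular genes fell in part. Vegfa (gene 22339, chromosome 17 from 46016993 to 46032377), the main angiogenic factor, had 38.5, 35.9 and 36.8 FPKM contralaterally and 11.6, 12.3 and 18.5 FPKM ipsilaterally (log2 -1.42 ± 0.15, adjusted p = 1.1e-06). Plvap, a protein of fenestrated capillaries, fell from 31.1 ± 1.86 to 4.85 ± 0.521 FPKM, and Kdr, a VEGF receptor gene, from 6.69 ± 0.626 to 2.62 ± 0.182 FPKM. The general endothelial markers Pecam1 and Cdh5 were not called. Of 8 endothelial markers 4 were called lower and 0 higher, against 18.6% and 16.04% of all tested genes.

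Sperm bring transcripts of late germ cells into the caput from the testis, so these transcripts check the labels. On the ipsilateral side 12 of 18 were called lower and 0 higher, against 18.6% and 16.04% of all tested genes, at a median log2 of -2.99. Odf1, a sperm tail protein gene, had 14.4, 17.98 and 11.7 FPKM contralaterally and 0, 0.171 and 0.0729 FPKM ipsilaterally. Prm1, a protamine gene, had 19.6, 14.02 and 10.5 FPKM contralaterally and 1.16, 0.7797 and 0.332 FPKM ipsilaterally. Their sum was 146 ± 15.1 FPKM contralaterally and 49.0 ± 3.45 FPKM ipsilaterally. Without Dnaja4, the most abundant member, which changed by -0.46 on the log2 scale, the sums averaged 104.6 and 19.2 FPKM. The part of the sperm transcripts in the other falls was not tested.

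The change on the ipsilateral side was set against that of bilateral OD over sham, in which both routes are cut, by the difference of the 2 log2 fold changes in the same fit. The groups share no library. The difference was called negative (a deeper fall or smaller rise on the ipsilateral side) for 3125 genes (18.1%) and positive for 3339 (19.3%). Among the largest positive differences were secretory genes. Defb18, at 12464 ± 1606 FPKM in sham, was listed at 0 in every bilateral OD library, so no fold is given, and its difference was called (adjusted p = 3.4e-21). Lcn6 and Lcn10 were down to 0.466 ± 0.237 and 0.203 ± 0.0435 FPKM after bilateral OD, and their differences were called too (adjusted p = 1.7e-12 and 6.0e-18). Lypd8, at -8.54 after bilateral OD, differed by 9.62 ± 0.12 on the log2 scale. Gpx5 fell by 5.69 after bilateral OD, a difference of 5.45 ± 0.13, and Fkbp5 by 2.697, a difference of 2.59 ± 0.07. Lcn5 and Lcn12 were higher on the ipsilateral side but changed by -4.396 and -6.44 after bilateral OD.

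Negative differences also occurred in named families. 9230104L09Rik changed by -1.703 after bilateral OD, where 3604 ± 223 FPKM remained, and differed by -6.22 ± 0.19 (adjusted p = 3.2e-13). Cst8 differed by -5.18 ± 0.37, Krt23 by -4.58 ± 0.42 and Crisp1, which changed by -0.15 after bilateral OD, by -2.95 ± 0.60. The ipsilateral mean of Krt23 was below the 0.1 FPKM added, so the size of its difference depends on that constant. Cldn10 changed by 0.39 after bilateral OD and differed by -3.28 ± 0.42 (adjusted p = 3.2e-05). Of the ERK list Epha4 differed most, with -2.102 ± 0.21 on the ipsilateral side and 0.75 after bilateral OD. Genes that rose strongly after bilateral OD, such as the hormone genes Iapp, from 4.73 ± 1.26 in sham to 230.1 ± 18.5 FPKM, and Stc1, from 1.59 ± 0.759 to 73.97 ± 1.303 FPKM, rose by 1.33 and 1.56 on the log2 scale on the ipsilateral side, and both differences were called.

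Set against Nell2-/- over WT, in which both testes are present and the ligand is missing, the ipsilateral change differed for fewer genes, with 393 (2.27%) called negative and 411 (2.38%) called positive. The largest negative differences were sperm transcripts, 11 of the 18 markers being called, with Odf1 at 0.43 and Prm1 at 0.55 in Nell2-/-, differences of -6.88 ± 0.39 and -4.74 ± 0.44 (adjusted p = 1.8e-08 and 1.2e-05). Odf1 was at the floor ipsilaterally, so the size of its difference depends on the 0.1 FPKM added. Among genes of the epithelium several secretory genes kept more on the ipsilateral side than in Nell2-/-. Cst12 and Adam28 stood at 0.126 ± 0.218 and 0.106 ± 0.0132 FPKM in Nell2-/-, where a fold rests on the 0.1 FPKM added, so none is given. Their differences were called (adjusted p = 1.3e-06 and 7.6e-14). Lcn8 differed by 3.32 ± 0.22, 9230104L09Rik by 3.74 ± 0.19 and Lcn10 by 2.68 ± 0.15. For Ovch2 and Etv4 the differences of -0.22 ± 0.16 and -0.42 ± 0.46 were not called. Etv4 was at the floor on the ipsilateral side, so its difference depends on the 0.1 FPKM added and cannot show whether its losses were alike.

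Other genes had differences from Nell2-/- of either sign, where 2.27% of all tested genes were called negative and 2.38% positive. Of 19 cholesterol synthesis genes 7 differed, and Idi1 differed by -0.55 ± 0.10 (adjusted p = 0.00416) and Cyp51 by -0.70 ± 0.09 (adjusted p = 1.8e-04). Vegfa changed by -0.36 in Nell2-/- and differed by -1.06 ± 0.21 (adjusted p = 0.006304). Of the 8 MHC class II genes 4 differed. Cd74 was called higher, from 97.5 ± 13.5 contralaterally to 140.5 ± 9.69 FPKM ipsilaterally, a call lost without the contralateral replicate 2 (adjusted p = 0.0582), and had a log2 change of -0.47 in Nell2-/-, a difference of 1.003 ± 0.21 (adjusted p = 0.0113). The WT and Nell2-/- mice were older and unoperated, which the difference cannot separate from the missing testis.

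**Figure D5:**
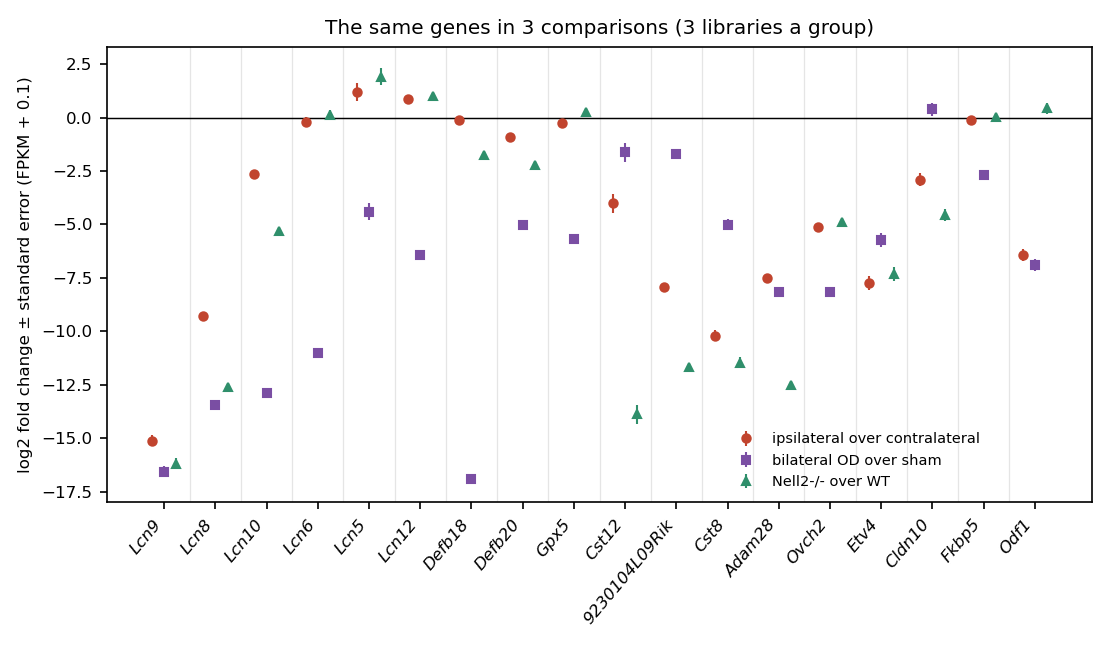
Log2 fold change ± standard error of 18 genes in 3 comparisons of 3 libraries against 3, namely ipsilateral over contralateral (red circles), bilateral OD over sham (purple squares) and Nell2-/- over WT (green triangles). Points of genes at or near 0 FPKM in a group rest on the 0.1 FPKM added, such as Defb18 and Odf1 after bilateral OD and Cst12 and Adam28 in Nell2-/-. Defb18, Lcn6 and Gpx5 stay near 0 on the ipsilateral side and fall far below it after bilateral OD, whereas Cst12, 9230104L09Rik and Cldn10 fall further on the ipsilateral side than after bilateral OD, and Odf1 falls in both operations but not in Nell2-/-.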

How the data were processed

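Polyadenylated RNA of mouse IS-caput epididymis was sequenced by the authors from stranded mRNA libraries. The authors deposited 1 table of FPKM for 24346 genes in 18 libraries, described as normalized FPKM. The submitters' processing notes name the mm10 build, TopHat2 2.1.1 and Cufflinks 2.2.1. FPKM values hold no read totals, so the depth is unknown and no counting interval is given. Reads were not realigned. The names of the 6 groups of 3 libraries come from the library titles.

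After adding 0.1 FPKM, log2 values of the 18 libraries entered 1 model of 6 group means (limma 3.58.1, R 4.3.3), in which 12 residual degrees of freedom remained. Moderated two-sided tests used the trended and robust options of eBayes. P-values were adjusted by Benjamini-Hochberg across the 17302 genes with at least 0.1 FPKM in at least 3 libraries, and 7044 other genes were not tested. Differences between comparisons were contrasts in the same fit. Summed FPKM of lists were compared by exact permutation. The fit was tested on simulated data with known changes.

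The comparison, its members, the 47 gene lists and the tests were chosen with earlier results of these data known. Genes named are the 20 largest called falls and rises with a mean of at least 10 FPKM and ranges apart, the 10 largest losses and gains of FPKM, members of the lists, the 10 largest called differences in each direction from bilateral OD and from Nell2-/-, and the 10 most abundant uncalled genes whose 95% interval of log2 change lies within 0.5 of 0. Where another gene is named, the text says that it was picked with its values known. Alternative settings varied the added constant (1 or 0.01 FPKM), removed the filter or raised it to 1 FPKM, rescaled libraries by median ratios, restricted the fit to the 6 libraries, blocked on the replicate number, dropped single libraries, and took sums without the most abundant member. Gene positions and promoters are from RefSeq on GRCm38. Positions were matched by NCBI gene number for 24260 genes, and the printed promoters by symbol.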

Additional observations from a re-analysis of the deposited data

How the results depend on the processing

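Of the 5987 called genes 0 changed sign under any setting, but calls were lost. At least 5580 stayed called in the same direction under the other added constants, filters and scaling, 5354 in the fit of the 6 libraries alone and 4639 with the replicate block. With the replicate number as a block, in fits of only the libraries that each comparison needs, 2601 genes were called lower and 2359 higher, 272 10-fold lower and 28 10-fold higher, 5389 for the difference from bilateral OD and 721 for that from Nell2-/-. Which libraries of the 2 sides share a mouse is not given, and the numbers were not treated as pairs, since deviations of same-numbered sides correlated at 0.0592, 0.0475 and -0.0507 over 12776 genes. Leaving out 1 library gave 2777 to 2937 lower, 2275 to 2392 higher, 284 to 312 10-fold lower, 23 to 42 10-fold higher, 5903 to 6500 differing from bilateral OD and 560 to 858 from Nell2-/-, and between 4894 and 5036 of the calls were kept. The 10-fold counts depend on low values. Without a filter 53 genes were 10-fold higher, and with a filter of 1 FPKM in 3 libraries 202 were 10-fold lower and 6 10-fold higher. Without Gpx5 the summed FPKM of the glutathione list was higher by 214.4 ipsilaterally where the whole list differed by -4940.3. Changes in fold of lists rest on the 0.1 FPKM added where genes are listed at 0, and depth, which is unknown, limits what values under 1 FPKM can show.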

Other observations

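Globin transcripts of near-identical copies moved apart. Hbb-bs stood at 0.00445, 0.00431 and 0.00441 FPKM contralaterally and at 9.20, 9.31 and 8.04 FPKM ipsilaterally, and its means in sham, bilateral OD, WT and Nell2-/- lay between 0.00436 and 0.00454 FPKM. Hbb-b1, chosen after its values were seen, had 80.0, 132 and 83.8 FPKM contralaterally and 36.7, 39.7 and 28.8 FPKM ipsilaterally. The alpha-globin gene Hba-a1 had 56.0, 116 and 79.4 FPKM contralaterally and 39.9, 41.1 and 30.9 FPKM ipsilaterally. The split of reads between such copies is uncertain, and the cause was not tested.

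Reads of a pseudogene such as Atp6v0c-ps2 cannot be told from those of its parent gene where the sequences match, and Snord22 lies in an intron of a host gene.

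Genes at the top of the range that were not called, with log2 intervals within 0.5 of 0, were Gpx5, Spag11b and Defb18 among secreted products, and Crip1, Eef1a1, Itm2b and Tmsb4x among broadly expressed genes. Crip1 stood at 6711 ± 196 FPKM contralaterally and 6067 ± 346 ipsilaterally, and Tmsb4x at 4049 ± 125 and 3922 ± 102.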
